A study of Mus musculus with 6 samples.

Results

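Decorin, lumican, biglycan and fibromodulin are small leucine-rich proteoglycans of the extracellular matrix. They were examined together with 6 further genes that fibroblasts use to build or sense that matrix, namely Fbn1, Fn1, Postn, Mfap5, Dpt and Pdgfra. The 10 genes were taken by name, through their Entrez gene IDs, and all 10 are among the 13363 genes listed for gastrocnemius muscle. The muscles came from male Balb/c mice bought at 6 weeks of age and kept for 1 week before the experiment. The C26 group received 500000 C26 cells, a mouse colon adenocarcinoma line whose tumors cause wasting, under the skin of the right flank, and the control group was not inoculated. Each group holds 3 sequenced muscles, and the labels give no transgene or drug for either. The whole muscle was sequenced, so every cell type in it contributes RNA, and the labels do not say that each muscle came from a separate mouse. The p-values therefore measure the spread between these 6 samples.

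The matrix of skeletal muscle is made largely by fibroblasts and fibro-adipogenic progenitors, the cells marked by the receptor Pdgfra. Small leucine-rich proteoglycans bind collagen fibrils and set their spacing and width, and some of them also bind TGF-beta. Fibrillin-rich microfibrils carry elastin and store latent TGF-beta, whereas fibronectin, periostin and dermatopontin link collagen, cells and proteoglycans. This connective tissue passes the force of the muscle fibers to the tendon and forms the surroundings of satellite cells, the stem cells of muscle.

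The deposited values are FPKM, fragments per kilobase of transcript, scaled to the mapped reads of the sample, so levels are per length and can be set side by side between genes. Their sum per C26 muscle ranged from 531061 to 585169, that per control muscle from 626992 to 688300, and the 10 most abundant genes took 21.4% to 29.7% of that sum in C26 muscles and 36.5% to 36.8% in controls. For the test, FPKM were rescaled to a common sum (TPM), scaled by TMM factors, which lay between 0.903 and 1.08, and log2-transformed after adding 1. Fold changes are on this log2(TPM + 1) scale, which understates the change of low genes. They were tested with limma over all listed genes, and a gene was called when its adjusted p was under 0.05. The depth of each sample is unknown. The muscle label held in every sample, with 8 fiber genes such as Acta1 and Ckm which together reached 116532 to 175225 TPM in C26 muscles and 187344 to 208492 TPM in controls. One control muscle, replicate 3, stood apart from the other controls in genes of other cells. Its FPKM of Ptprc, the pan-leukocyte gene, was 40.1, against 0.81 and 0.40 in the other controls, and its FPKM of Adipoq, the fat cell hormone adiponectin, was 11.5, against 176 and 79.3.

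Of the 10 genes, 5 fell in the C26 muscles, namely Postn, Fmod, Dpt, Fn1 and Lum. The other 5, Dcn, Bgn, Fbn1, Mfap5 and Pdgfra, had lower means in C26 muscles but did not pass the test. By limma, 0 of the 10 were higher, also at an unadjusted p under 0.05 and in an ordinary linear model. Among all listed genes, 14.5% were called lower and 19.4% were called higher. The median log2 fold change was -1.36 over the 10 genes and -0.05 over all listed genes. The difference exceeded 4-fold for 3 of the 10, Fmod, Postn and Dpt, a size that 1.73% of all genes reached in this direction and 1.77% in the other. With a pseudocount of 0.1 it exceeded 4-fold for 4 of the 10, Fn1 included at a log2 fold change of -2.01. All C26 muscles lay below all controls for 8 of the 10 genes after scaling and for 9 of the 10 in FPKM as deposited, against 26.5% and 34.6% of all genes. In the opposite direction, all C26 muscles lay above all controls for 0 of the 10, against 27.0% of all genes after scaling and 18.7% in FPKM as deposited. In bulk muscle, fewer cells of a type and less RNA per cell cannot be told apart.

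How many of the 10 genes passed the test moved with single muscles. It was 2 without C26 replicate 1, without C26 replicate 2 or without control replicate 2, it was 3 without control replicate 1, 5 without control replicate 3 and 7 without C26 replicate 3. The number of all genes called lower moved as well, from 1931 to 669 without C26 replicate 1 and to 2160 without C26 replicate 3. It was 946 without C26 replicate 2, 724 without control replicate 1, 1402 without control replicate 2 and 1958 without control replicate 3. Postn and Fn1 were called lower in each of these 6 fits. The count also depended on the scaling. With FPKM as deposited, 8 of the 10 genes were called lower, beside 2504 of all genes. The share of lower genes among all calls was 59.9%, against 42.7% after TMM scaling. The median of all genes was -0.14 in place of -0.05.

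**Figure D1:**
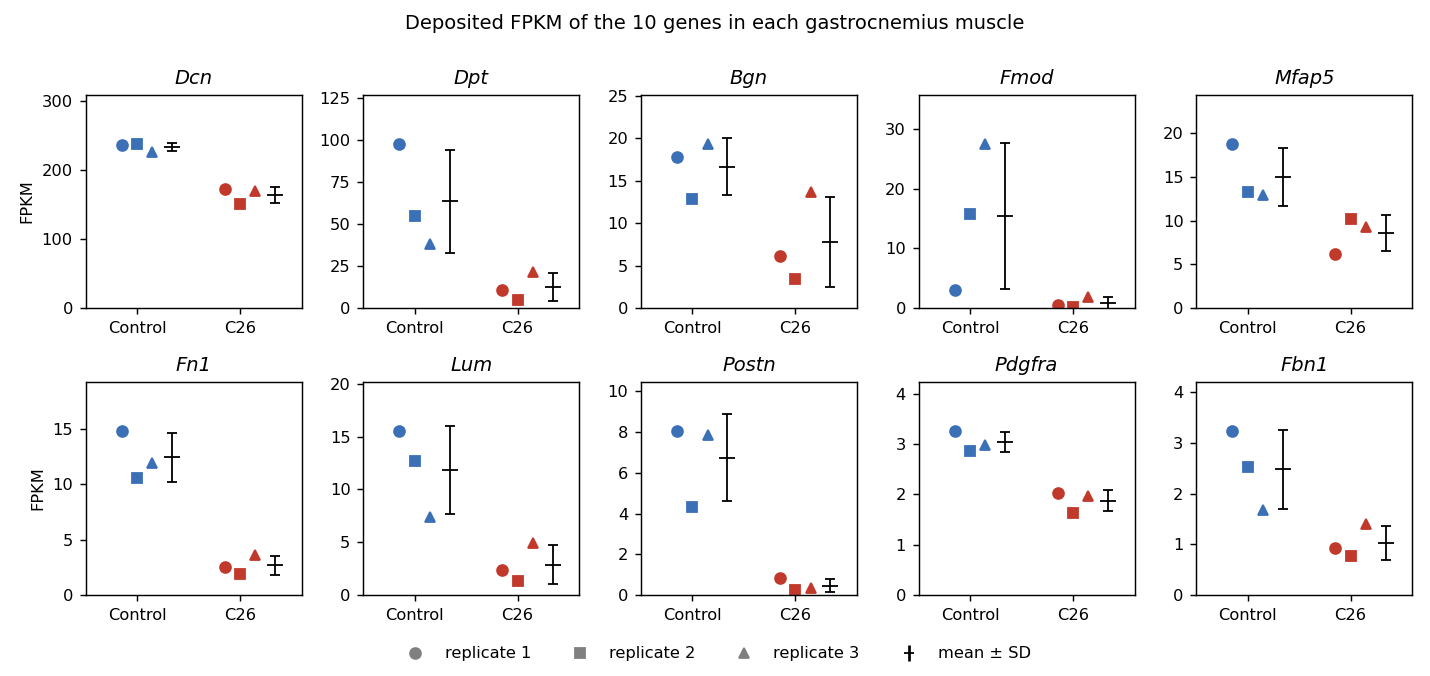
FPKM as deposited of each of the 10 genes in the 3 C26 and 3 control muscles, with 1 panel and 1 linear axis from 0 per gene. Points are muscles, with 1 shape per replicate number, and the crosses with bars are the group mean ± SD. All C26 points lie below all control points in 9 panels, Bgn being the exception.

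Decorin was the most abundant of the 10 genes in both groups. Dcn (Entrez 13179, chr10:97479500-97518163 in GRCm38.p6) encodes the dermatan sulfate proteoglycan that coats type I collagen fibrils and binds TGF-beta. Its FPKM was 172, 150 and 169 in C26 muscles and 236, 238 and 226 in the controls, with means of 164 ± 11.8 and 233 ± 6.38 (SD, n = 3 each). The groups did not overlap, and relative to the mean the SD, 7.22% in C26 muscles and 2.74% in controls, was the smallest of the 4 proteoglycans. After scaling, the log2 fold change was -0.29 with an SE of 0.155, and it did not pass the test (limma, adjusted p = 0.182). The 95% confidence interval ran from -0.67 to 0.08. With FPKM as deposited the difference was -0.51 (limma, adjusted p = 0.0206), and with quantile normalization it was -0.70 (limma, adjusted p = 0.0160), so the call for decorin rests on the scaling.

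Lumican lies next to decorin on chromosome 10, at chr10:97565501-97572703, with 47337 bases between the annotated genes. Lum (Entrez 17022) encodes a keratan sulfate proteoglycan that regulates fibril assembly. Its FPKM was 2.34, 1.38 and 4.93 in C26 muscles and 15.6, 12.7 and 7.35 in the controls. All C26 muscles were below all controls, although C26 replicate 3 and control replicate 3 came close to each other. Lum fell by 1.72 on the log2 scale with an SE of 0.469 (limma, adjusted p = 0.0333). The call was lost without C26 replicate 1 (limma, adjusted p = 0.107), C26 replicate 2 (0.0899), control replicate 1 (0.109) or control replicate 2 (0.0890), while the direction stayed.

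Biglycan, the closest relative of decorin, carries chondroitin or dermatan sulfate chains. Bgn (Entrez 12111, chrX:73483601-73495936) had FPKM of 6.15, 3.47 and 13.7 in C26 muscles and 17.8, 12.9 and 19.4 in the controls. The groups overlapped, since C26 replicate 3 exceeded control replicate 2. The log2 fold change of -1.01 (SE 0.468, 95% interval from -2.14 to 0.11) did not pass the test (limma, adjusted p = 0.137). Without C26 replicate 3 it was -1.46 and passed (limma, adjusted p = 0.0121).

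Fibromodulin, which is abundant in tendon and guides collagen cross-linking, had the largest fold change of the 10 and the widest spread. Fmod (Entrez 14264, chr1:134037254-134048280) had FPKM of 0.46, 0.19 and 1.92 in C26 muscles and 3.07, 15.7 and 27.6 in the controls. The groups did not overlap, yet the controls differed among themselves by more than the gap between the groups. Fmod fell by 3.05 on the log2 scale with an SE of 0.816 (limma, adjusted p = 0.0311), an 8.27-fold difference, and the 95% interval ran from -5.01 to -1.09. The call was lost without C26 replicate 1 (limma, adjusted p = 0.103), C26 replicate 2 (0.0978), control replicate 2 (0.0853) or control replicate 3 (0.0682).

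Genes of tendon cells were read beside fibromodulin. Of 8 tendon markers, 4 were listed. Scx, the tendon transcription factor scleraxis, had FPKM of 0.80, 0.35 and 2.85 in C26 muscles and 6.21, 5.44 and 5.97 in controls, and it fell by 1.78 on the log2 scale (limma, adjusted p = 0.0315). The call for Scx was lost in 5 of the 6 fits that leave out a muscle, all but the one without C26 replicate 3. Comp, Thbs4 and Chodl did not pass the test. In controls 1, 2 and 3, Comp had FPKM of 0.34, 1.07 and 1.50 and Thbs4 had 14.2, 19.9 and 21.5, so both were lowest and highest in the same controls as Fmod, whereas Scx was highest in control 1 and Chodl, with 2.45, 2.98 and 2.78, in control 2. Chodl had 2.26, 0.92 and 5.21 FPKM in C26 muscles, with C26 replicate 3 above every control. The summed TPM of the 4 markers was 10.02 to 36.9 in C26 muscles and 34.7 to 49.7 in controls, so the groups overlapped, and the defining markers Tnmd and Mkx were not listed. The part of tendon tissue in the Fmod values was not tested.

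Neither of the microfibril genes passed the test. Fibrillin-1 is the main protein of microfibrils, and Fbn1 (Entrez 14118, chr2:125300594-125506485) had FPKM of 0.92, 0.77 and 1.40 in C26 muscles and 3.24, 2.53 and 1.67 in the controls. The FPKM did not overlap between groups, but the scaled values did. The log2 fold change was -0.75 with an SE of 0.268 (limma, adjusted p = 0.0715). It was called with FPKM as deposited, at -0.76 (limma, adjusted p = 0.0397), and also without C26 replicate 3, at -0.88 (limma, adjusted p = 0.0426), or without control replicate 3, at -0.98 (limma, adjusted p = 0.0275). Mfap5, a small glycoprotein bound to microfibrils (Entrez 50530, chr6:122513584-122529290), had FPKM of 6.21, 10.2 and 9.33 in C26 muscles and 18.8, 13.2 and 13.0 in the controls. The groups did not overlap, and C26 replicate 1 was the lowest of its group, whereas C26 replicate 2 was the lowest for the other 9 genes. Mfap5 had a log2 fold change of -0.57 (SE 0.239), which did not pass the test (limma, adjusted p = 0.108) and did so only with quantile normalization, at -0.77 (limma, adjusted p = 0.0494).

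Periostin and fibronectin had the calls that held in the most settings. Postn (Entrez 50706, chr3:54359267-54391041) encodes a matricellular protein that fibroblasts secrete on TGF-beta signalling and after injury. Its FPKM was 0.82, 0.26 and 0.33 in C26 muscles and 8.06, 4.30 and 7.88 in the controls, with means of 0.470 ± 0.305 and 6.75 ± 2.12 (SD, n = 3 each). The lowest control was 5.24 times the highest C26 muscle. Postn fell by 2.62 on the log2 scale with an SE of 0.270 (limma, adjusted p = 0.00280). The call held in all 9 alternative settings and in all 6 fits with a muscle left out.

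Fibronectin, the adhesive glycoprotein that cells bind through integrins, is encoded by Fn1 (Entrez 14268, chr1:71585473-71653280). Its FPKM was 2.53, 1.87 and 3.62 in C26 muscles and 14.8, 10.5 and 11.9 in the controls, with means of 2.67 ± 0.884 and 12.4 ± 2.18 (SD, n = 3 each). The groups stood well apart. Fn1 fell by 1.82 on the log2 scale with an SE of 0.251 (limma, adjusted p = 0.00538), and this call too held in all 9 alternatives and all 6 fits without a muscle.

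Dermatopontin binds decorin and promotes collagen fibril formation. Dpt (Entrez 56429, chr1:164796663-164824274) had FPKM of 10.7, 5.09 and 21.3 in C26 muscles and 97.6, 54.6 and 38.0 in the controls. Each group varied widely, but no C26 muscle reached a control. Dpt fell by 2.19 on the log2 scale with an SE of 0.580 (limma, adjusted p = 0.0302). It lost the call without C26 replicate 1 (limma, adjusted p = 0.0927), C26 replicate 2 (0.0709), control replicate 1 (0.0991) or control replicate 2 (0.0740).

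Pdgfra, the receptor that marks the progenitors themselves, did not pass the test. Pdgfra (Entrez 18595, chr5:75151322-75198206) had FPKM of 2.03, 1.63 and 1.96 in C26 muscles and 3.26, 2.87 and 2.98 in the controls, with means of 1.87 ± 0.214 and 3.04 ± 0.201 (SD, n = 3 each). The groups did not overlap, and within each the values were close. After scaling, the log2 fold change was -0.38 with an SE of 0.146 (limma, adjusted p = 0.0828), and with FPKM as deposited it was -0.49 and passed (limma, adjusted p = 0.0248).

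**Figure D2:**
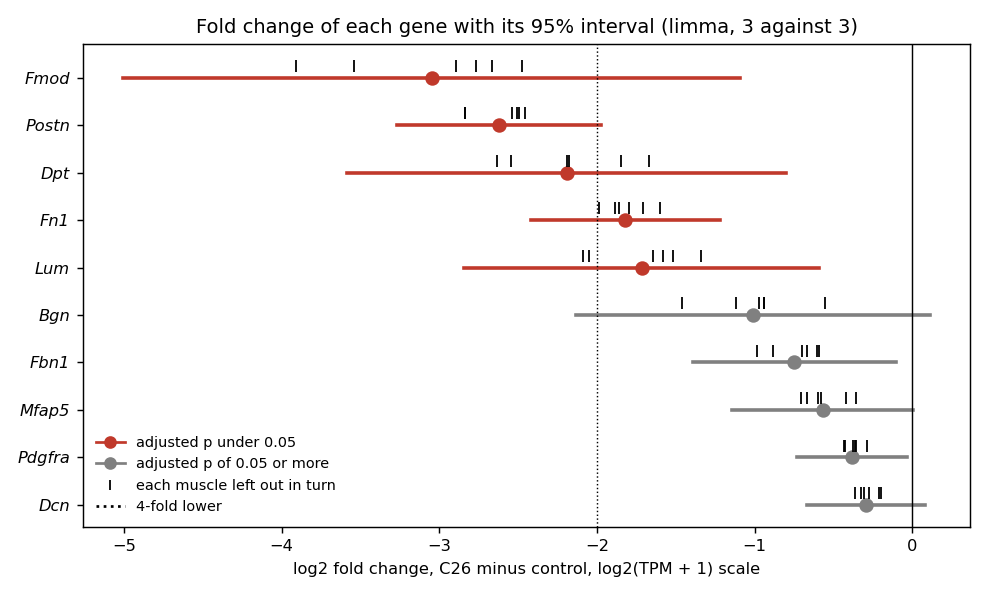
Log2 fold change of each of the 10 genes, C26 minus control, on the log2(TPM + 1) scale, ordered by size. Points are estimates from 3 against 3 muscles, horizontal lines are 95% intervals, ticks are the fits that omit each muscle in turn, and the dotted line marks a 4-fold lower level. The 5 red genes have an adjusted p under 0.05, and Fmod has the widest interval.

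Sequence upstream of an annotated start was held for 6 of the 10 genes in RefSeq (GRCm38.p6), and Dcn, Lum, Fn1 and Mfap5 are not shown. The windows are the 250 bases before an annotated start. Those of the 3 genes that fell by more than 4-fold are given beside that of Pdgfra, which did not pass the test. Postn has 2 annotated starts, and the window at chr3:54360857-54361106 (plus strand) is shown because it holds a TATA box. The others are at chr1:134037004-134037253 for Fmod, chr1:164796413-164796662 for Dpt and chr5:75152001-75152250 for Pdgfra, all on the plus strand. The windows shown for Postn and Pdgfra lie inside the gene spans given above, since their starts are downstream of the first base of the gene. The Fbn1 window, which is not shown, partly overlaps its gene span. Capitals mark matches to the SMAD box (CAGAC on either strand) or the TATA box (TATAAA on either strand).
Postn: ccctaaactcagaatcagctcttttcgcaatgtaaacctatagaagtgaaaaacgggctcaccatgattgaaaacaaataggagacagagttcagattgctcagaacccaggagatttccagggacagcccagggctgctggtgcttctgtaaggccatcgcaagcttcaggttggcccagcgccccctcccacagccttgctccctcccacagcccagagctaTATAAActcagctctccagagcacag
Fmod: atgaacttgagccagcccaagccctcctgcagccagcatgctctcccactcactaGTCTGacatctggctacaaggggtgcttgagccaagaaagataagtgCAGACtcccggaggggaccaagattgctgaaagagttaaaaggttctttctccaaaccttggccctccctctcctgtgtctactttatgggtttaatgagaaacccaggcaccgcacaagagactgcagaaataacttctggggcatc
Dpt: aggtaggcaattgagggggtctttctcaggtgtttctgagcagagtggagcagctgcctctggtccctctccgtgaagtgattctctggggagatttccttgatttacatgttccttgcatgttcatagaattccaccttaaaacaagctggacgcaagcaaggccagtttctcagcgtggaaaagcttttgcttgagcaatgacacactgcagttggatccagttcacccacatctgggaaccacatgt
Pdgfra: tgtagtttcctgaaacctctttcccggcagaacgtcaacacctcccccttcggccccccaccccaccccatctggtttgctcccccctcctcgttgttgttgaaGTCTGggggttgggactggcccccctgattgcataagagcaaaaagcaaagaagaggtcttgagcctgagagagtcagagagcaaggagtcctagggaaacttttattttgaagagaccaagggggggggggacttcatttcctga

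The search covered both strands for 5 motifs, the SMAD box, the AP-1 site (TGANTCA), the TEAD site (GGAATG), the TATA box and the GC box (GGGCGG). In the Postn window the TATA box began 26 bases before the start, a motif that 12.4% of all 32817 windows held. Fmod had SMAD boxes 195 and 148 bases before its start, Pdgfra had one 146 bases before, and the window of the other Postn start had one 191 bases before. A SMAD box was present in 42.2% of all windows and in 40.8% of the 13569 windows of listed genes, and a TATA box in 6.81% of the latter. The Dpt window held none of the 5 motifs. The Bgn window (chrX:73483351-73483600, plus strand) held GC boxes 34, 10 and 6 bases before the start, of which the last pair overlap, and the Fbn1 window (chr2:125506439-125506688, minus strand) held one 185 bases before. A GC box was present in 32.7% of all windows and 55.8% of those of listed genes, an AP-1 site in 6.75% and 4.56%, and a TEAD site in 12.6% and 10.9%, and none of the windows of the 6 genes held either of the latter. These are matches of letters, and binding was not measured.

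The share of decorin in the set was higher in every C26 muscle than in any control. The summed FPKM of the 10 genes was 204, 175 and 228 in C26 muscles and 418, 367 and 356 in the controls (202 ± 26.3 against 380 ± 33.2, SD, n = 3 each). Decorin alone made up 84.2%, 85.8% and 74.3% of this sum in C26 muscles and 56.4%, 64.8% and 63.5% in the controls. The other 9 genes together had 32.2, 24.8 and 58.5 FPKM in C26 muscles and 182, 129 and 130 FPKM in controls. Among the 4 proteoglycans, the share of decorin was 95.1%, 96.8% and 89.2% in C26 muscles against 86.6%, 85.2% and 80.6% in controls. Neither share overlapped between the groups.

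**Figure D3:**
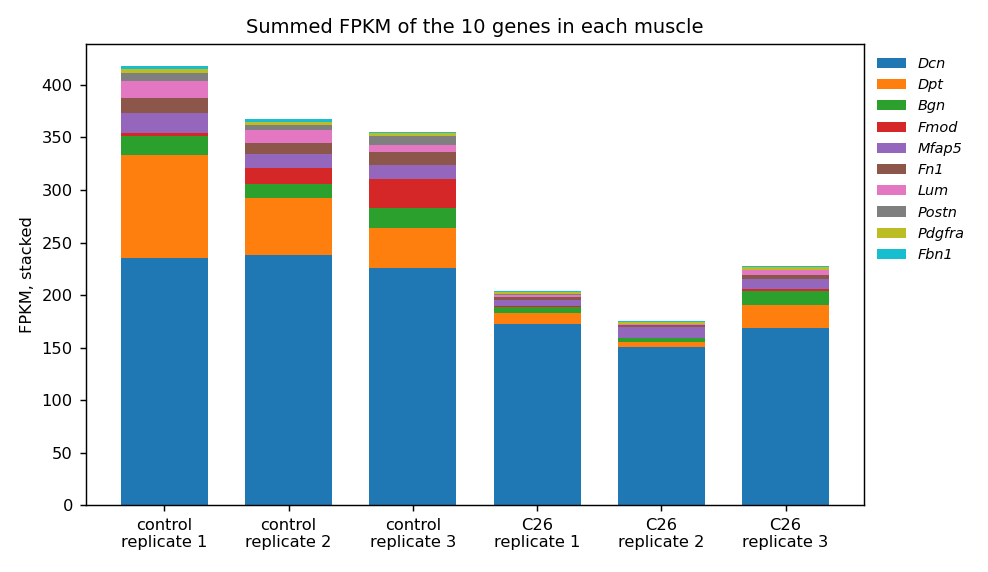
Summed FPKM of the 10 genes in each of the 6 muscles, as stacked bars that start at 0, with 1 color per gene and Dcn at the base. The Dcn portion takes 74.3% to 85.8% of the bar in C26 muscles and 56.4% to 64.8% in controls.

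A ratio within a muscle does not depend on scaling between muscles, so each of the other 9 genes was divided by Pdgfra. With 3 against 3 muscles the smallest exact permutation p is 0.1, so no ratio could pass 0.05. Fn1 per Pdgfra was 1.25, 1.15 and 1.85 in C26 muscles and 4.54, 3.67 and 3.997 in controls, a log2 difference of -1.55. Postn per Pdgfra was 0.404, 0.160 and 0.168 against 2.47, 1.50 and 2.64, a log2 difference of -3.27. For both genes the groups did not overlap, and the two-sided exact permutation p was 0.1, or 0.225 after Benjamini-Hochberg adjustment over the 9 ratios. Dpt per Pdgfra was 5.29, 3.12 and 10.9 against 29.9, 19.0 and 12.8, again without overlap, at a log2 difference of -1.78 and an exact p of 0.1. Dcn per Pdgfra went the other way. It was 84.8, 92.2 and 86.3 in C26 muscles and 72.3, 82.9 and 75.8 in controls, a log2 difference of 0.19 with an exact p of 0.1. The ratios of Lum, Fmod and Fbn1 overlapped, with log2 differences of -1.47, -3.62 and -0.56 and an exact p of 0.2 each. Bgn, at -0.61 (exact permutation p = 0.4), and Mfap5, at -0.12 (exact permutation p = 0.9), overlapped as well, and the Mfap5 ratio turned positive without C26 replicate 1 (0.16) or control replicate 1 (0.0058).

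**Figure D4:**
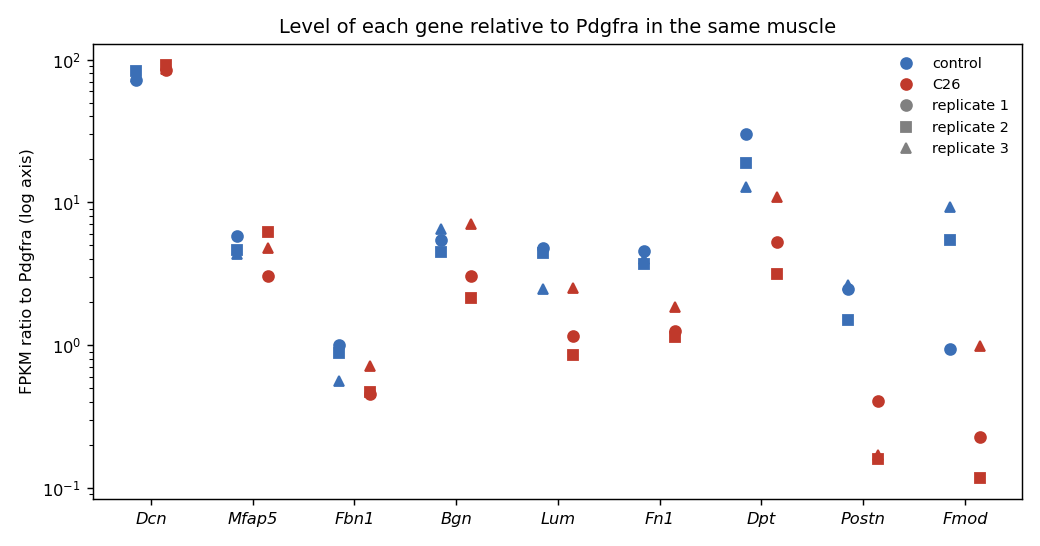
FPKM of each of the 9 other genes divided by the FPKM of Pdgfra in the same muscle, on a log axis. Points are the 3 C26 and 3 control muscles. Fn1, Postn and Dpt lie lower in all C26 muscles, Dcn lies slightly higher, and the other 5 overlap.

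The muscles of a group kept a rough order across the 10 genes. By FPKM, C26 replicate 2 was the lowest C26 muscle for 9 genes and C26 replicate 3 the highest for 6. Among controls, replicate 1 was the highest for 7 genes and replicate 3 the lowest for 5. The median deviation from the group mean over the 10 genes was 0.42 on the log2 scale in C26 replicate 3, -0.07 in C26 replicate 1 and -0.37 in C26 replicate 2. In controls it was 0.23, 0.04 and -0.14 in replicates 1 to 3. The genes share each library, so these are not separate measurements of a muscle.

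The 5 listed genes whose levels followed the mean of the 10 most closely over the 6 muscles were Mmp15, Abca9, Mamld1, Tpmt and Gpd1. Their Pearson r was 0.999, 0.998, 0.997, 0.997 and 0.996, given as a description, since the 6 points form 2 groups. Mmp15, a membrane-bound matrix metalloproteinase, had FPKM of 1.70, 0.98 and 2.83 in C26 muscles and 8.52, 7.26 and 6.12 in controls. Gpd1, the cytosolic glycerol-3-phosphate dehydrogenase, had FPKM of 28.5, 18.0 and 67.8 against 280, 305 and 179. The choice by likeness to the 10 genes largely fixes the direction of these genes, so no test is given for them here.

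Across the wider family of small leucine-rich proteoglycans, 13 of 17 genes were listed. By limma, 6 of the 13 fell, Lum and Fmod among them, and 0 rose, also at an unadjusted p under 0.05, beside 14.5% of all genes called lower and 19.4% called higher. The median log2 fold change was -1.20. Podn, podocan, which binds type I collagen, had FPKM of 0.86, 0.39 and 2.23 in C26 muscles and 13.4, 8.35 and 6.99 in controls, and it fell by 2.44 on the log2 scale (limma, adjusted p = 0.0105). Ogn, osteoglycin or mimecan, had FPKM of 3.41, 2.75 and 3.98 against 16.3, 13.5 and 10.7 and fell by 1.62 (limma, adjusted p = 0.00598). Tsku, tsukushi, fell by 1.20 (limma, adjusted p = 0.00425) at low levels of 0.12 to 0.25 FPKM in C26 muscles and 1.17 to 1.37 FPKM in controls. The count of 6 was 4 without C26 replicate 1, C26 replicate 2 or control replicate 2 and 8 without C26 replicate 3, a fit in which 1 rose. It was 3 in an ordinary linear model, and with a pseudocount of 0.1 again 1 rose.

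Several of these genes sit side by side in the genome, and neighbours did not all share a call, beside 14.5% of all genes called lower. On chromosome 10, Lum fell and Dcn did not pass. On chromosome 1, where Optc, Prelp and Fmod lie together, 1 of 3 fell, Fmod. On chromosome 13, in the group of Ecm2, Aspn, Omd and Ogn, 2 of 4 fell, Ecm2 and Ogn. Aspn, asporin, had a log2 fold change of -0.75 and did not pass (limma, adjusted p = 0.0550). Prelp ranged from 7.42 to 30.6 FPKM among the controls and did not pass (limma, adjusted p = 0.0960). Its log2 fold change was -1.21, about that of Ecm2 (-1.20).

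Elastic fiber and microfibril genes held 4 that fell and 0 that rose among 16 listed of 18, beside 14.5% and 19.4% of all genes, with a median of -0.59, and 0 rose at an unadjusted p under 0.05 or in an ordinary linear model. Ltbp4, a latent TGF-beta binding protein, fell by 1.71 on the log2 scale (limma, adjusted p = 0.0154), from 16.6 to 26.1 FPKM in controls to 2.97 to 7.61 FPKM in C26 muscles. Mfap2, another microfibril glycoprotein, fell by 1.50 (limma, adjusted p = 0.00443), and Efemp2, fibulin-4, fell by 0.79 (limma, adjusted p = 0.00784). The count of 4 was 2 without C26 replicate 1 or control replicate 1 and 8 without control replicate 3 or with FPKM as deposited, and 1 gene rose without C26 replicate 3.

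Of 22 fibronectin, matricellular and adhesive matrix genes, all listed, 12 fell and 2 rose, beside 14.5% and 19.4% of all genes, with a median of -0.92. Postn, Dpt and Fn1 are among the 12, and of the other 19 genes 9 fell. Sparc, a collagen-binding matricellular protein, had FPKM of 45.5, 38.2 and 56.0 in C26 muscles and 287, 156 and 151 in controls, and it fell by 1.81 on the log2 scale (limma, adjusted p = 0.00812). Thbs1, thrombospondin-1, an activator of latent TGF-beta, rose from 0.35, 0.26 and 0.32 FPKM to 3.80, 3.53 and 1.21 FPKM, a log2 fold change of 1.93 (limma, adjusted p = 0.00857). That call held in all 9 alternatives and in all 6 fits without a muscle. Aebp1, a collagen-binding protein of fibroblasts, also passed, at 2.07 (limma, adjusted p = 0.0489), with 86.6, 77.8 and 15.0 FPKM against 16.3, 13.0 and 8.99. Its groups overlapped in FPKM through C26 replicate 3, and the call was lost in 5 of the 6 fits. The count of 12 was 4 without C26 replicate 1 and 5 in an ordinary linear model.

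Ligands and receptors around these genes were read as a pair of lists, against 14.5% of all genes called lower and 19.4% called higher. Of 7 PDGF ligands and receptors, 2 fell and 0 rose by limma, also at an unadjusted p under 0.05. Pdgfb fell by 0.84 on the log2 scale (limma, adjusted p = 0.0156) and Pdgfrb, the receptor of pericytes, fell by 0.70 (limma, adjusted p = 0.0279). The count of 2 was 0 without C26 replicate 2 or control replicate 1 and 4 without control replicate 3 or with FPKM as deposited. Of 12 genes for TGF-beta ligands, receptors and SMADs, 1 fell and 3 rose, with a median of 0.29. Smad4, the shared partner of the receptor-regulated SMADs, rose from 11.3, 12.4 and 11.9 FPKM to 33.0, 28.7 and 23.4 FPKM, a log2 fold change of 1.41 (limma, adjusted p = 0.00361). Tgfbr2, the type II receptor, rose by 0.86 (limma, adjusted p = 0.0268), although control replicate 3 lay above C26 replicate 3 in FPKM and the call was lost in 4 of the 6 fits without a muscle. Tgfb2 fell by 1.24 (limma, adjusted p = 0.0123), from between 2.30 and 4.07 FPKM to between 0.70 and 1.0 FPKM, a call that was lost without C26 replicate 1 or control replicate 1 and in 2 of the 9 alternatives. Among the 12, the count of genes that rose was 1 in 4 of the fits without a muscle. Over the alternatives that count ran from 1 to 4, and the count that fell ran from 0 to 1.

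**Figure D5:**
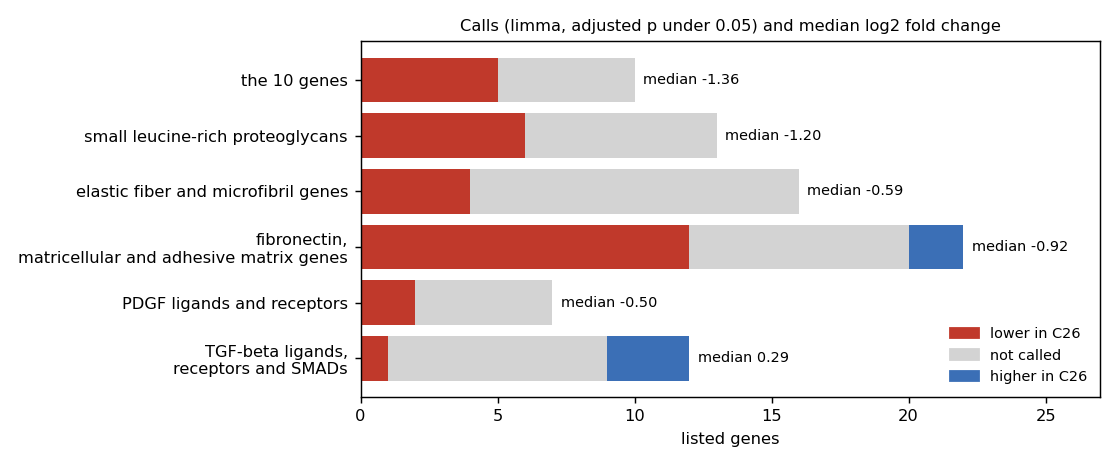
Number of listed genes in 6 gene lists, as stacked bars from 0 that separate genes called lower in C26 muscles, not called and called higher (limma, adjusted p under 0.05). The number beside each bar is the median log2 fold change of the list, from -1.36 for the 10 genes to 0.29 for TGF-beta ligands, receptors and SMADs, the list with more genes called higher than lower.

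Markers of fibroblasts other than the 10 genes were read beside them. Of 21 such markers, all listed, 12 fell and 1 rose, beside 14.5% and 19.4% of all genes, with a median of -1.10. Their summed level was 558 to 1013 TPM in C26 muscles and 1260 to 2089 TPM in controls. Col3a1 had FPKM of 2.82, 1.45 and 7.87 against 82.1, 48.2 and 42.0 and fell by 3.63 on the log2 scale (limma, adjusted p = 0.00705). Col1a1 had FPKM of 2.78, 1.64 and 5.76 against 37.1, 24.4 and 36.8 and fell by 2.97 (limma, adjusted p = 0.00523). Thy1 fell by 2.79 (limma, adjusted p = 0.0217), with 32.9 FPKM in control replicate 3 against 6.44 and 4.42 in the other controls. The Thy1 call was lost in 3 of the 6 fits without a muscle and in 1 of the 9 alternatives, whereas those of Col3a1 and Col1a1 held in all. Lox, lysyl oxidase, which cross-links collagen, was the marker that rose, at 1.57 (limma, adjusted p = 0.0222). The count of 12 was 5 without control replicate 1 and in an ordinary linear model, and the count of 1 that rose was 0 without C26 replicate 1, C26 replicate 2, control replicate 2 or control replicate 3. Whether fibroblast number plays a part in the values of the 10 genes was not tested.

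Fat cell markers were lower as well. Of 8 fat cell markers, 6 fell, beside 14.5% of all genes. Summed levels were 476 to 685 TPM in C26 muscles and 780 to 6191 TPM in controls, with control replicate 3 the lowest control. By FPKM that muscle was the lowest control for 5 of the 10 matrix genes and the highest for 2, and control replicate 2 was the lowest for 4. The part of fat tissue in the values of the 10 genes was not tested. Adipoq fell by 4.66 on the log2 scale (limma, adjusted p = 0.0196), Retn, resistin, fell by 4.55 (limma, adjusted p = 0.0215) and Plin1, perilipin of fat droplets, fell by 4.34 (limma, adjusted p = 0.0171). The count of 6 was 0 without C26 replicate 1 or C26 replicate 2 and in an ordinary linear model.

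For the remaining cell types the summed levels overlapped between the groups, except for muscle fiber genes, and the counts stand beside 14.5% of all genes called lower and 19.4% called higher. Endothelial markers held 2 of 8 that fell, Kdr and Emcn, with sums of 112 to 117 TPM against 110 to 145 TPM, and smooth muscle and pericyte markers held 3 of 8, Cspg4, Pdgfrb and Kcnj8, with sums of 108 to 170 TPM against 157 to 233 TPM. Both counts were 0 without C26 replicate 1, C26 replicate 2, control replicate 1 or control replicate 2, the endothelial count was 4 without control replicate 3, and the other was 5 without C26 replicate 3. Nerve sheath markers held 2 of 6, S100b and Pmp22, with sums of 37.1 to 76.6 TPM against 72.7 to 181 TPM, and satellite cell markers 1 of 6, Vcam1, with sums of 35.1 to 53.9 TPM against 39.7 to 55.1 TPM. The nerve sheath count was 0 without control replicate 1 and 3 without control replicate 2, Pmp22 lost its call in all 6 fits without a muscle, and the satellite cell count was 0 in 4 of them. Of 8 macrophage markers, 0 passed by limma, 2 were higher and 1 lower at an unadjusted p under 0.05, and 0 passed in an ordinary linear model, while 2 were called higher without C26 replicate 3 and 1 with quantile normalization, with sums of 100 to 537 TPM against 98.2 to 350 TPM. Single genes carried the highest sums, Cd68 with 247 FPKM in C26 replicate 2, against 34.9 and 6.46 in the other C26 muscles, and Lyz2 with 188 FPKM in control replicate 3, against 39.1 and 29.3 in the other controls. Of 8 lymphocyte markers, Ptprc was listed and did not pass. Among 8 muscle fiber genes, Mylpf, a fast myosin light chain, fell by 1.95 (limma, adjusted p = 0.0179) and Des, desmin, rose by 0.72 (limma, adjusted p = 0.0185), and these calls were lost in 2 and 3 of the 6 fits without a muscle. With FPKM as deposited, 5 of the 8 were called lower. The part of these cells in the values of the 10 genes was not tested.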

How the data were processed

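Gastrocnemius muscle samples were compared, 3 of the C26 group and 3 of the control group. The authors removed rRNA with RNase H, sequenced single-end reads of 50 bases and estimated expression with RSEM. The deposited values are FPKM with 2 decimals, above 0 in every sample for all 13363 listed genes. The submitters' processing notes name HISAT2 2.0.4, Bowtie2 2.2.5, RSEM 1.2.12 and the build mm9, whereas the study's methods name a GRCm38 patch, and the coordinates given here are those of RefSeq (GRCm38.p6). The extraction text of the labels names another cell source than muscle. No read counts were used here, so depth and counting error are unknown, and the number of muscles limits the precision.

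Groups came from the sample labels, and the labels name no batch. Entrez IDs were matched to symbols for 13327 genes and not for 36. FPKM were rescaled to TPM, divided by unweighted TMM factors (trimming 30% by log ratio and 5% by mean level), and log2-transformed with a pseudocount of 1. Groups were compared with limma 3.58.1 under R 4.3.3, and p-values were adjusted by Benjamini-Hochberg across the whole table. Ratios were compared with a two-sided exact permutation test. The fit was tested on simulated data. The alternatives were a pseudocount of 0.1, genes with a mean TPM of 1 or more, quantile normalization, no TMM scaling, unscaled FPKM, a replicate block, an intensity trend, an ordinary linear model, each muscle left out in turn and, chosen after seeing the data, a scaling without the 20 most abundant genes.

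The 10 genes and the gene lists were chosen with earlier results of these data known. Named are the 10 genes, up to 3 further called genes of each list with the largest changes and the 5 genes most like the mean of the 10. Acta1, Ckm, Comp, Thbs4, Chodl, Cd68, Lyz2, Tnmd, Mkx, Ptprc, Lox, Aspn, Prelp, Ecm2, Omd and Optc were named after their values were seen. Figures were drawn with Python 3.11.15 and matplotlib 3.10.9.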

Additional observations from a re-analysis of the deposited data

How the results depend on the processing

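With 3 muscles a group, single muscles and the scaling set several calls, and the depth is unknown. With FPKM as deposited, 1678 genes were higher and 2504 lower. Of the 10 genes 8 were lower, and Dcn (-0.51), Fbn1 (-0.76) and Pdgfra (-0.49) passed the test. With quantile normalization Dcn (-0.70) and Mfap5 (-0.77) passed. In an ordinary linear model without moderation, 1526 genes were higher and 959 lower, 2 of the 10 genes were lower and 1 by more than 4-fold, and Lum (-1.72, adjusted p = 0.107), Fmod (-3.05, 0.107) and Dpt (-2.19, 0.103) did not pass. The causes were not tested. The deviations of same-numbered samples from their group means had correlations of -0.04, -0.08 and -0.11. Those of differently numbered samples ran from -0.10 to 0.13. Such values cannot show whether same-numbered samples were handled together, and the labels do not say. With the replicate number as a block, 1236 genes were lower, 3 of the 10 genes were lower, and Lum (-1.72, limma, adjusted p = 0.0864) and Dpt (-2.19, 0.0666) did not pass.

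With each muscle left out in turn, 1131 to 3311 genes were higher and 669 to 2160 lower, 2 to 7 of the 10 genes were lower and 1 to 4 by more than 4-fold. The log2 fold changes ran from -2.09 to -1.34 for Lum, -1.46 to -0.56 for Bgn, -3.91 to -2.48 for Fmod, -0.98 to -0.59 for Fbn1 and -2.64 to -1.67 for Dpt. The log2 ratio of Mfap5 to Pdgfra ran from -0.35 to 0.16 and was positive without C26 replicate 1 (0.16) or control replicate 1 (0.0058). No other sign among the 10 genes and their ratios turned. Without the 20 most abundant genes, 2913 genes were higher and 1843 lower. In that setting 5 of the 10 genes were lower and 3 by more than 4-fold. Each list count and each call of a named list gene was compared once in each of the 9 alternatives. In 67 such comparisons a list count moved by more than 1.5 times or appeared where the main fit had none. In 55 a call of a named list gene was lost.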

Other observations

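The enzymes that build the sugar chains of these proteoglycans were read as a further list. Of 22 chondroitin and dermatan sulfate chain enzymes, 20 were listed, and 5 fell while 0 rose by limma, beside 14.5% and 19.4% of all genes, with 1 higher at an unadjusted p under 0.05 and 0 higher in an ordinary linear model. Chst14, the dermatan 4-O-sulfotransferase, had FPKM of 0.57, 0.72 and 0.65 in C26 muscles and 2.23, 1.72 and 2.29 in controls. It fell by 0.96 on the log2 scale (limma, adjusted p = 0.00515), and the call held in every alternative and every fit with a muscle left out. Dse, the epimerase that turns chondroitin into dermatan sulfate, had FPKM of 0.90, 0.67 and 0.48 against 2.41, 1.35 and 1.56 and fell by 0.74 (limma, adjusted p = 0.0333). Chst15 fell by 0.86 (limma, adjusted p = 0.0284). The Dse call was lost in 5 of the 6 fits without a muscle and in 3 of the 9 alternatives, and the Chst15 call in 3 and 2. The count of 5 was 1 without C26 replicate 1, C26 replicate 2 or control replicate 1. It was also 1 with quantile normalization and in an ordinary linear model, and 1 gene rose without C26 replicate 3.

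Of 12 large proteoglycan and hyaluronan genes, 9 were listed, and 4 fell and 1 rose, beside the same shares of all genes. Prg4, lubricin, had FPKM of 2.74, 2.64 and 6.47 in C26 muscles and 0.66, 0.71 and 1.28 in controls, and it rose by 1.70 on the log2 scale (limma, adjusted p = 0.0156), a call that was lost without control replicate 1 and in an ordinary linear model. Cspg4, the pericyte proteoglycan NG2, fell by 1.48 (limma, adjusted p = 0.0187) and Hspg2, perlecan of basement membranes, fell by 0.93 (limma, adjusted p = 0.0314). The count of 4 was 0 without C26 replicate 1, C26 replicate 2 or control replicate 1.

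Of 21 matrix-degrading enzymes and their inhibitors, 20 were listed, and 4 fell and 4 rose, counts read against 14.5% of all genes called lower and 19.4% called higher. Adamts10, which binds fibrillin microfibrils, had FPKM of 1.45, 1.14 and 1.89 in C26 muscles and 9.52, 5.14 and 10.6 in controls and fell by 1.88 on the log2 scale (limma, adjusted p = 0.00551). Adamts9, a proteoglycan-cleaving protease, had FPKM of 2.36, 2.38 and 1.77 against 0.91, 0.79 and 0.49 and rose by 1.20 (limma, adjusted p = 0.00642). Without C26 replicate 1 or control replicate 1, 1 fell and 1 rose, whereas 8 fell without control replicate 3 and 6 rose without C26 replicate 3.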
